A study of Mus musculus with 10 samples.

Results

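Hepatic transcripts of 42 genes of the coagulation and complement systems were examined in mice that received the PAI-1 inhibitor TM5614. The genes were chosen by name, as the clotting, contact and anticoagulant factors without their serpin inhibitors (25 genes) and as the complement and lectin pathway components without C1q (17 genes), out of 24421 genes listed. RNA sequencing was performed on livers of 10 male wild-type C57BL/6 mice, aged 21 weeks by the labels and fed ad libitum. The Chow group (n = 5) ate standard chow, and the TM5614 group (n = 5) ate chow that contained 20 mg/kg/day of TM5614 over 10 days. This compound is a small molecule, given by mouth, that blocks PAI-1, the main inhibitor of the plasminogen activators. The comparison asked which hepatic transcripts differ between treated and untreated mice. Each library came from 1 mouse and held between 6398335 and 10874955 counts, so counting error was small for all but the scarcest of these transcripts.

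Coagulation and complement are cascades of plasma proteins in which a protease activates the next protease from an inactive precursor. Hepatocytes make most of these proteins, while tissue factor, thrombomodulin, the protein C receptor, factor VIII, von Willebrand factor and tissue factor pathway inhibitor come mainly from endothelium or other vessel wall cells, and properdin and the A subunit of factor XIII from myeloid cells. Clotting ends with thrombin cutting fibrinogen to fibrin, the protein that plasmin dissolves, and complement ends with the assembly of the membrane attack complex on a target surface.

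Of the 42 genes 40 had enough counts for a test, and 3 of these (7.5%, against 4.5% of all genes tested and 6.66% of genes with at least 10 FPKM) passed it, all 3 lower in the TM5614 group. They were Hgfac, the serum protease that activates hepatocyte growth factor, F7, which encodes coagulation factor VII, and C4b, which encodes complement component C4. The promoters of the 2 coagulation genes among them are shown here, followed by those of the 3 fibrinogen genes, which served as abundant hepatic members without a call. Each line is the strand of the gene from 250 bases before to 50 bases after the annotated start, from RefSeq on GRCm38.p6. Capitals mark matches to the motifs named in the next paragraph. The windows are chr8:13025784-13026083 on the plus strand for F7, chr5:35041259-35041558 on the plus strand for Hgfac, chr3:83025903-83026202 on the plus strand for Fga, chr3:83049814-83050113 on the minus strand for Fgb and chr3:83007474-83007773 on the plus strand for Fgg.
F7: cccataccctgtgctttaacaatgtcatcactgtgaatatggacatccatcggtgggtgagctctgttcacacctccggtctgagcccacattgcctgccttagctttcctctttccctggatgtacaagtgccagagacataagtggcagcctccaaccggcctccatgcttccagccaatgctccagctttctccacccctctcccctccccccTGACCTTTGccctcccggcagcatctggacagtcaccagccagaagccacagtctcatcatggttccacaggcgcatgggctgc
Hgfac: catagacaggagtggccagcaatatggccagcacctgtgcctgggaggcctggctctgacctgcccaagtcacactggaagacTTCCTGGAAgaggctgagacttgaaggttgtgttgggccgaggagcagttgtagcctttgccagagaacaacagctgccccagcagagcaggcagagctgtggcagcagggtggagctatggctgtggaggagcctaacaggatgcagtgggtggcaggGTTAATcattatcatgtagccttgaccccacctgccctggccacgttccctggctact
Fga: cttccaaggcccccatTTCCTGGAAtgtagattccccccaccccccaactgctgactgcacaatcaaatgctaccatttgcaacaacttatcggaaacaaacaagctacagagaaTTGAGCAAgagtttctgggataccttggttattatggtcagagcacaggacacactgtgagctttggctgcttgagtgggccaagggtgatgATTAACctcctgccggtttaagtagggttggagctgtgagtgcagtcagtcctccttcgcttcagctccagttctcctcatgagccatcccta
Fgb: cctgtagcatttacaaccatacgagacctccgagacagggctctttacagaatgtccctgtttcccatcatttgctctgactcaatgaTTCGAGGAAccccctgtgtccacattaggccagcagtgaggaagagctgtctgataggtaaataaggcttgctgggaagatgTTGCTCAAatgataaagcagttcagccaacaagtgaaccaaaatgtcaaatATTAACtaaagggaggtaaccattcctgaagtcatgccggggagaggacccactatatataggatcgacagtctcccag
Fgg: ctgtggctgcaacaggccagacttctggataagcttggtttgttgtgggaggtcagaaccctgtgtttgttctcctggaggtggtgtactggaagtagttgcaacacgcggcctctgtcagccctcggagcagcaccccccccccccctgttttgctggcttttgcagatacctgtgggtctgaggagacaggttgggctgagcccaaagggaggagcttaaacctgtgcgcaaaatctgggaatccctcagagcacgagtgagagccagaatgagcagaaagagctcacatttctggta

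Of the 42 genes, 33 had a promoter in the RefSeq table, with 36 windows in all. C2, C4b, Cfb, Cfi, Kng1, Masp1, Proc, Thbd and Vwf had none in the table. Both strands were searched for 9 motifs, and no matches of different motifs overlapped. The half-site of HNF1, a liver-enriched homeobox factor, was searched as GTTAAT and was found in 11 of 36 windows (30.6%), against 7.1% of 32851 windows of all genes. It lay 8 bases before the start of Hgfac, 43 bases before that of Fga and 29 bases before that of Fgb, and the other windows that held it belonged to F2, F13b, Proz, C4bp, C8a, C8b, Hc and Cfp. The STAT motif TTCNNNGAA was found in 7 windows (19.4%, against 8.3% of all windows), including those of Hgfac, Fga and Fgb, and the C/EBP motif TTGNNCAA was also found in 7 (19.4%, against 6.4%), including those of Fga, Fgb, F11 and F12. The window of F7 held CAAAGGTCA, a core of the direct repeats that nuclear receptors bind, on the opposite strand, 34 bases before the start. That motif was searched after the F7 sequence had been seen, and the F9 window also held it (2 windows, 5.56%, against 0.478% of all windows). The FOXA motif TGTTTAC was found in 2 windows (5.56%, against 3.65%), those of the chromosome 8 neighbours F11 and Klkb1. The TATA motif TATAAA was found in 5 windows (13.9%, against 13.6%) and the E-box CACGTG in 1 (2.78%, against 7.15%). The HNF4 motif CAAAGTCCA (0.475% of all windows) and the PAR-bZIP motif TTATGTAA (0.938% of all windows) were found in none of the 36. Each motif was searched only in the form printed, so other forms of these sites were not counted. The Fgg window held no match. A match describes the letters in a window and does not show that a factor binds there.

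Levels of different genes were compared per gene length, as FPKM. In the Chow group the most abundant of the 42 transcripts was that of Fgb, the fibrinogen beta chain, at 2887 ± 322 FPKM (SD, n = 5). C3, the central component of complement, followed at 2242 ± 304 FPKM and Fgg, the gamma chain, at 2115 ± 223 FPKM, 2 levels within 1 SD of each other. Fga, the alpha chain, was at 1325 ± 147 FPKM, F2, which encodes prothrombin, at 1011 ± 138 FPKM, and Kng1, which encodes kininogen, at 940 ± 89.8 FPKM, the last 2 again within 1 SD. These 6 transcripts stood above all the others, of which the next was Mbl2, a mannose-binding lectin, at 446 ± 48.9 FPKM. At the other end stood the transcripts of vessel wall and myeloid cells. F3, which encodes tissue factor, was at 2.12 ± 0.564 FPKM, F8 at 1.20 ± 0.363 FPKM, Tfpi at 0.709 ± 0.184 FPKM, Vwf at 0.503 ± 0.129 FPKM and Thbd at 0.439 ± 0.325 FPKM. F13a1, the A subunit of factor XIII, had between 0 and 3 counts in 9 of the libraries and 16 counts in TM5614 replicate 2, and Procr, the protein C receptor, had between 2 and 9 counts. Neither passed the filter on low counts, so 40 genes were tested.

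**Figure D1:**
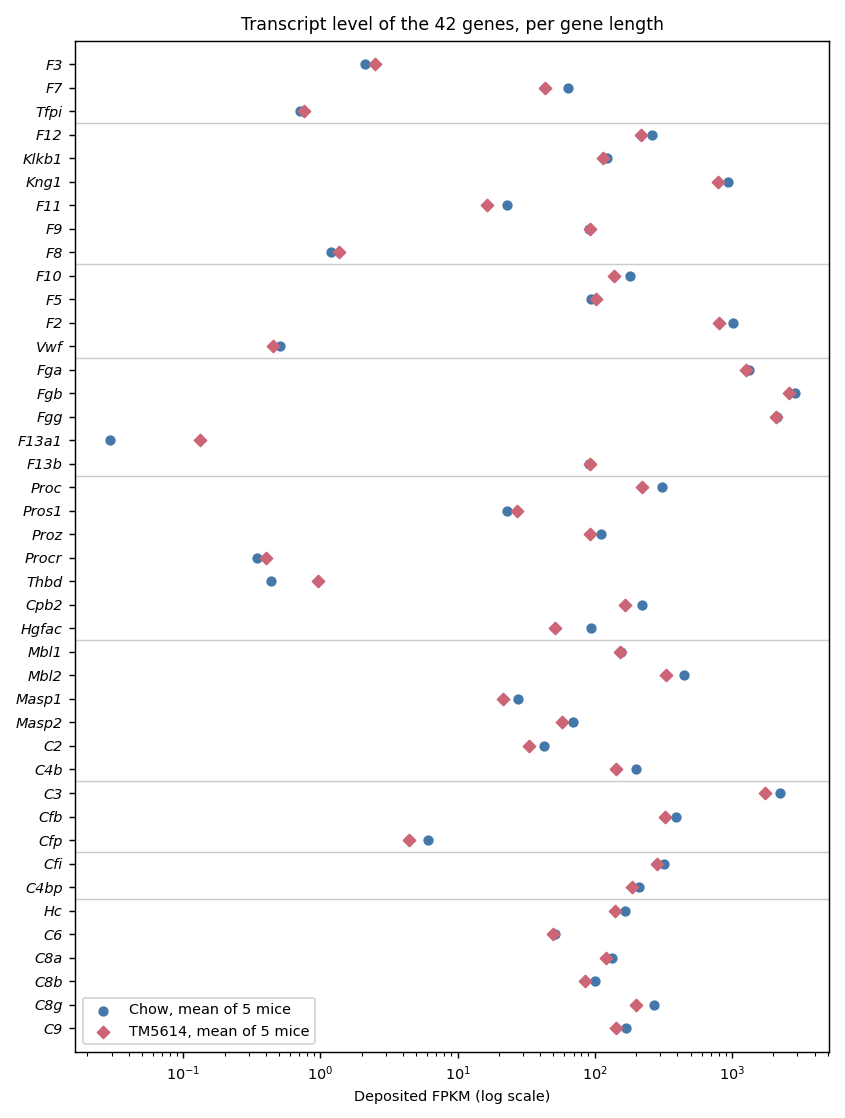
Mean FPKM (log scale) of each of the 42 genes in the Chow group (circles, n = 5) and the TM5614 group (diamonds, n = 5), with grey lines between functional groups from the tissue factor pathway at the top to the terminal complement at the bottom. Fibrinogen and C3 transcripts stand near the right edge, and F13a1, Procr, Thbd, Vwf and Tfpi stand at the left, with means below 1 FPKM in both groups.

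The libraries were compared before the groups. Chow replicate 2 stood apart, with a mean correlation of 0.927 with the other Chow libraries, where the remaining 9 libraries had 0.965 to 0.982 with their own groups, and GC content and gene length accounted for 46.0% of the spread of its deviations (0.763% to 11.5% in the others). It held the highest Chow value of some of the 42 genes, such as F7, F12, F10, F2, Proc, Hgfac and C8g, and the lowest of others, such as F9, F5, F13b, Masp1, Cfi and C3. TM5614 replicate 2 held transcripts of skeletal muscle, with 3641 summed CPM over 8 markers such as Acta1 and Ckm. The Chow group had 0.644 to 1.25 summed CPM. TM5614 replicate 3 held fewer, with Acta1 at 22.2 CPM and Ckm at 5.27 CPM, against 1211 and 300 CPM in TM5614 replicate 2. Acta1 was at 1.60 CPM in TM5614 replicate 4 and at 0.616 CPM in TM5614 replicate 5. The Chow libraries had at most 0.0965 CPM of either gene. CPM are counts as a share of all counts of a library, scaled between libraries and set to a common total. Values without Chow replicate 2 or TM5614 replicate 2 are therefore given where they moved a result. Defining markers of hepatocytes were abundant in every library, with 112943 to 127436 summed CPM over the 7 hepatocyte markers listed (Alb among them) in Chow mice and 100150 to 117935 in TM5614 mice.

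**Figure D2:**
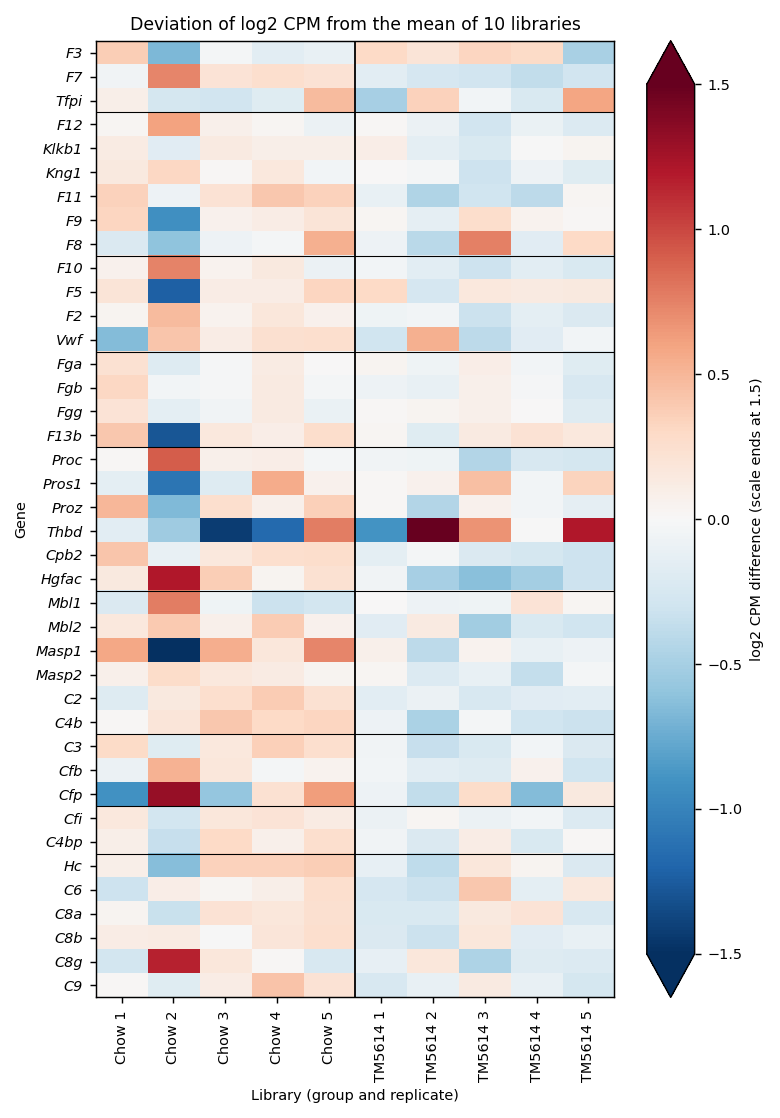
Deviation of log2 CPM of the 40 tested genes (rows, ordered by function) from the mean of all 10 libraries (columns), with red above and blue below the mean and the scale ending at 1.5. Rows such as F7, F11, Hgfac and C4b are mostly red in the Chow libraries and blue in the TM5614 libraries, the fibrinogen rows stay pale, and Chow replicate 2 stands out in either direction.

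Across the 40 tested genes, 3 (7.5%) passed an adjusted p of 0.05 in edgeR's quasi-likelihood test with Benjamini-Hochberg adjustment over 11092 genes, and all 3 were lower in the TM5614 group. The background was 4.5% of all genes tested, made up of 2.77% that were lower and 1.73% that were higher. At an unadjusted p of 0.05, 14 of the 40 passed, all of them lower in the TM5614 group, where 20.4% of all genes passed and 11.7% passed and were lower. The CPM of the groups did not overlap for 6 of the 40, namely F7, F2, Proc, Hgfac, Masp2 and C4b, all lower in the TM5614 group, where 8.93% of all genes did not overlap, 4.87% with lower and 4.07% with higher values. None of the 40 was called higher, at the adjusted or the unadjusted threshold, and DESeq2 and limma-voom also called 0 of them higher. The median log2 fold change of the 40 was -0.24, with 32 estimates below 0 and 8 above, against a median of 0.01 and 48.5% below 0 over all genes tested. Of the 40, 34 had a mean of at least 10 FPKM, and among the 4097 genes at that level 6.66% were called, the median was -0.07 and 58.0% of the estimates were below 0. The number called depended on the tool and the libraries. DESeq2, the tool of the study, called 9 of 40 (8.08% of all genes tested), limma-voom with sample quality weights called 13 (12.5%), and edgeR without Chow replicate 2 called 9 (9.24%). Without Chow replicate 2 and TM5614 replicate 2 it called 11 (11.1%), and with all libraries but with GC content and gene length corrected for it called 6 (6.46%). It called 0 without Chow replicate 3, without Chow replicate 5 or without TM5614 replicate 1, 3 or 4. It called 1 without Chow replicate 4 (Hgfac), without TM5614 replicate 2 (Mbl2) or without TM5614 replicate 5 (F11). It called 3 without Chow replicate 1 (F7, C2 and C4b). Fewer cells of a type and less RNA per cell cannot be told apart in bulk tissue.

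**Figure D3:**
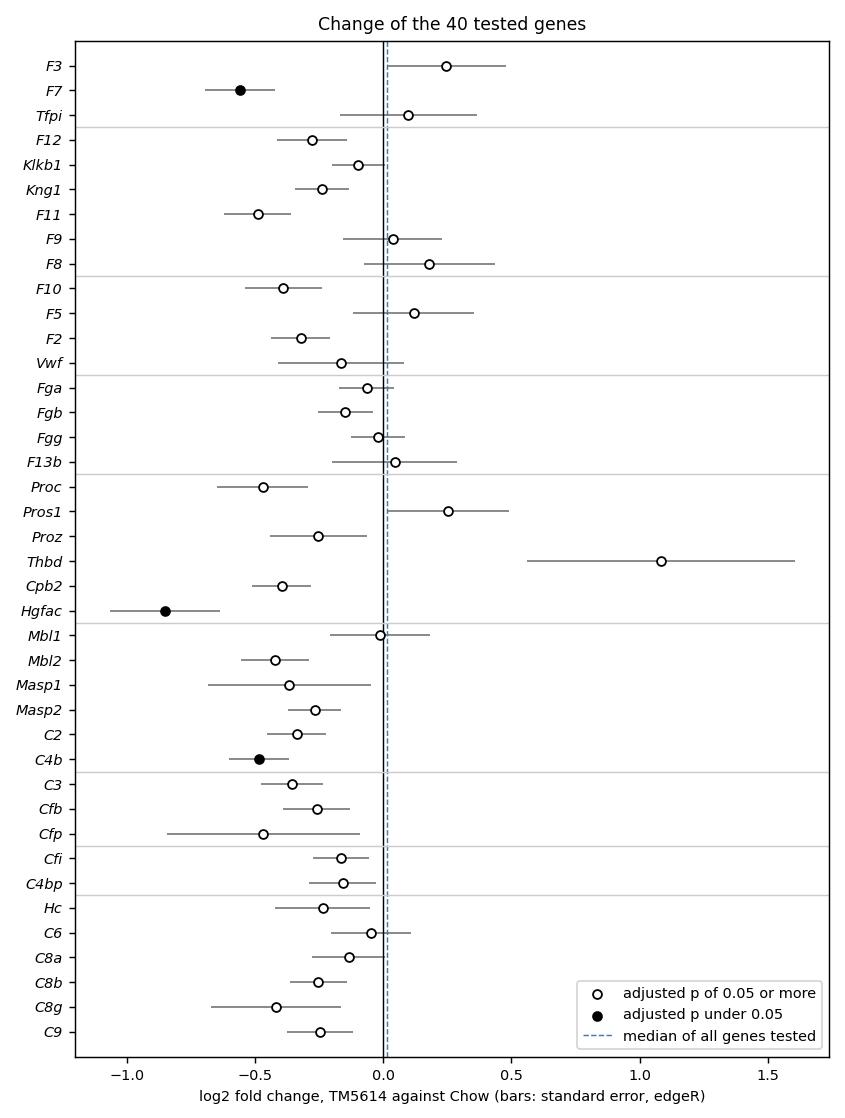
Log2 fold change (TM5614 against Chow) of the 40 tested genes with its standard error from edgeR (bars), with filled circles for an adjusted p under 0.05 and a dashed line at the median of all genes tested (0.01). Filled circles mark F7, Hgfac and C4b, all 17 complement genes in the lower part lie left of 0, and Thbd lies at 1.08 with the widest bar.

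All 17 complement genes had estimates below 0, from -0.48 for C4b to -0.01 for Mbl1, with a median of -0.26, and 1 of them was called. In the other settings between 15 and 17 of these estimates were below 0. The number was 15 with limma-voom, where Mbl1 (0.22) and Cfp (0.09) had estimates above 0. It was also 15 with library totals alone, without TM5614 replicate 2 and without both replicate 2 libraries. In the last of these settings Mbl1 (0.27) and C6 (0.03) had estimates above 0. Of the 23 coagulation genes tested, 15 had estimates below 0 and 8 above, with a median of -0.15, and 2 were called. In the other settings between 14 and 19 of these were below 0, and the difference between the complement and the coagulation genes was not tested. The complement genes took 1.81% ± 0.189 (SD, n = 5) of all counts in Chow mice and 1.49% ± 0.0734 in TM5614 mice, with libraries from 1.49% to 1.98% and from 1.40% to 1.56%. Most of that came from C3. The coagulation genes took 2.09% ± 0.123 of counts in Chow mice and 1.95% ± 0.0976 in TM5614 mice. These shares are descriptions of the libraries, without a test.

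In the tissue factor pathway, which starts clotting at an injured vessel, F7 was the transcript that changed. Factor VII is the vitamin K-dependent protease that tissue factor binds and that activates factors IX and X, and its gene lies on chromosome 8 from 13026034 to 13035809 (GRCm38, plus strand), next to F10 and Proz. F7 was at 94.5, 163, 113, 117 and 114 CPM in Chow replicates 1 to 5 and at 88.0, 82.7, 80.6, 76.1 and 80.4 CPM in TM5614 replicates 1 to 5. Every TM5614 library lay below every Chow library, and the 5 TM5614 values were closely spaced while Chow replicate 2 was the highest. The mean fell from 120 ± 25.3 to 81.6 ± 4.33 CPM (SD over 5 mice), and the log2 fold change was -0.56 ± 0.14 (SE) with an adjusted p of 0.0389 in edgeR. Without Chow replicate 2 the log2 fold change was -0.43 and the adjusted p 0.00626, and the call also held without Chow replicate 1 (adjusted p = 0.0249, edgeR). Without any other single library it was lost, with an adjusted p of up to 0.112 (without TM5614 replicate 4, edgeR). Tissue factor itself, F3, had a log2 fold change of 0.25 ± 0.23 (adjusted p = 0.566, edgeR), and Tfpi, the inhibitor of the complex of tissue factor and factor VIIa, had 0.10 ± 0.27 (adjusted p = 0.854, edgeR). Both of these scarce transcripts had between 13 and 47 counts in a library and overlapped between the groups.

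None of the 6 genes of the contact and intrinsic pathways passed edgeR's adjusted threshold, while 2 had an unadjusted p under 0.05 and DESeq2 and limma-voom each called 1, F11. Over all genes tested 20.4% had an unadjusted p under 0.05 in edgeR, DESeq2 called 8.08% and limma-voom called 12.5%. Factor XI is the protease that factor XIIa or thrombin activates and that in turn activates factor IX. F11 was at 55.4, 41.5, 50.6, 57.8 and 55.5 CPM in the Chow libraries and at 40.4, 31.9, 35.3, 33.1 and 44.8 CPM in the TM5614 libraries. The groups overlapped through 1 library on each side, since Chow replicate 2 lay below TM5614 replicate 5. The means were 52.2 ± 6.52 and 37.1 ± 5.36 CPM, a log2 fold change of -0.49 ± 0.13 with an adjusted p of 0.0579 in edgeR. Without Chow replicate 2 the log2 fold change was -0.57 and the adjusted p 0.00587. Kng1, the source of bradykinin and a cofactor of the contact pathway, had means of 2759 ± 263 and 2340 ± 207 CPM (log2 fold change -0.24 ± 0.11, adjusted p = 0.232 in edgeR). Reads of its near copy Kng2 (1982 to 3662 counts, against 17745 to 32525 for Kng1) may have been divided between the genes in counting. F12, the protease that starts the contact pathway, had a log2 fold change of -0.28 ± 0.14 (adjusted p = 0.271, edgeR), and -0.15 without Chow replicate 2. Klkb1, which encodes plasma prekallikrein and lies beside F11 on chromosome 8, had -0.10 ± 0.10. F9 and F8, the protease and cofactor that activate factor X and that haemophilia patients lack, had 0.04 ± 0.19 and 0.18 ± 0.25, and without Chow replicate 2 they had -0.13 and 0.05.

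Prothrombin and factor X, the proteases of the common pathway, had lower means in the TM5614 group without an adjusted p under 0.05 in edgeR. DESeq2 (adjusted p = 0.0429) and limma-voom (adjusted p = 0.0490) called F2, and neither called F10. F2 was at 1899, 2572, 1911, 2076 and 1932 CPM in the Chow libraries and at 1775, 1795, 1473, 1677 and 1589 CPM in the TM5614 libraries. The groups did not overlap, and Chow replicate 2 was again far above its group. The means were 2078 ± 285 and 1662 ± 134 CPM, a log2 fold change of -0.32 ± 0.11 (adjusted p = 0.141, edgeR), and -0.24 without Chow replicate 2 (adjusted p = 0.0879). F10 had means of 494 ± 124 and 377 ± 26.4 CPM (log2 fold change -0.39 ± 0.15, adjusted p = 0.173 in edgeR), and the fold change was -0.23 without Chow replicate 2. F5, the cofactor of factor Xa, had a log2 fold change of 0.12 ± 0.23 (adjusted p = 0.799, edgeR), and -0.08 without Chow replicate 2, with 305 CPM in Chow replicate 2 against 767 to 890 CPM in the other Chow libraries. Vwf, the platelet adhesion protein that carries factor VIII, had -0.16 ± 0.25 and between 21 and 58 counts.

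The transcripts of fibrinogen, among the most abundant of the 42, gave no call. The 3 genes lie together on chromosome 3 between 83007724 and 83049863 (GRCm38), Fga and Fgg on the plus strand and Fgb on the minus strand. Fgb was at 4596 ± 507 CPM in Chow mice and at 4148 ± 341 CPM in TM5614 mice, a log2 fold change of -0.15 ± 0.11 (adjusted p = 0.452, edgeR). For Fga the means were 4506 ± 498 and 4310 ± 324 CPM (log2 fold change -0.06 ± 0.11, adjusted p = 0.754, edgeR), and for Fgg 3260 ± 343 and 3216 ± 230 CPM (-0.02 ± 0.10, adjusted p = 0.932, edgeR). With GC content and length corrected for, the log2 fold change of Fgb was -0.31 (adjusted p = 0.128, edgeR). The groups overlapped for all 3. F13b, the carrier subunit of factor XIII, had 0.04 ± 0.24, and -0.16 without Chow replicate 2. In this set of 5 genes, of which 4 were tested, edgeR called 0, 0 had an unadjusted p under 0.05, and DESeq2 and limma-voom also called 0. The fibrinogen genes together took 1.21% ± 0.132 of counts in Chow mice and 1.18% ± 0.0956 in TM5614 mice.

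Because the 3 fibrinogen chains assemble into 1 protein, as do the 3 chains of C8, their transcripts were compared from mouse to mouse after the group mean had been taken out of log2 CPM. Over the 10 libraries the fibrinogen chains moved together. Pearson's r was 0.88 for Fga and Fgb (Spearman's rho 0.94), 0.90 for Fga and Fgg (rho 0.88) and 0.91 for Fgb and Fgg (rho 0.94). In exact two-sided permutation tests that exchanged libraries within groups, with adjustment over the 6 pairs of both proteins, the raw p of r was 0.0025, 0.00104 and 0.00194 and the adjusted p was 0.005 for each pair. The raw p of rho was 0.000625, 0.00521 and 0.00278, with adjusted values of 0.00375, 0.0104 and 0.00833. Without the 2 libraries farthest from the median of the first gene r was 0.88, 0.84 and 0.90, and without Chow replicate 2 and TM5614 replicate 2 it was 0.94, 0.95 and 0.96. All points share the scaling of their library, whose part in these correlations was not tested.

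The C8 chains did not give such values. C8a and C8b, neighbours on chromosome 4, had r = 0.39 (rho 0.26), with an exact permutation p of 0.306 for r and 0.513 for rho, which adjustment left the same, and r was 0.63 without the 2 farthest libraries. C8a and C8g, which lies on chromosome 2, had r = -0.73 (rho -0.52), with raw and adjusted exact permutation p of 0.0433 and 0.065 for r and of 0.118 and 0.141 for rho. That relation was -0.59 without the 2 farthest libraries and -0.16 without Chow replicate 2 and TM5614 replicate 2, so its size rested on those libraries. For C8b and C8g r was -0.40 (rho -0.62), with raw and adjusted exact permutation p of 0.140 and 0.168 for r and of 0.0521 and 0.0781 for rho, and r was -0.22 without the 2 farthest libraries. Without Chow replicate 2 and TM5614 replicate 2 this relation was larger, at r = -0.75 (exact permutation p = 0.0451, adjusted 0.0677) and rho = -0.79 (exact permutation p = 0.0313, adjusted 0.0469).

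**Figure D4:**
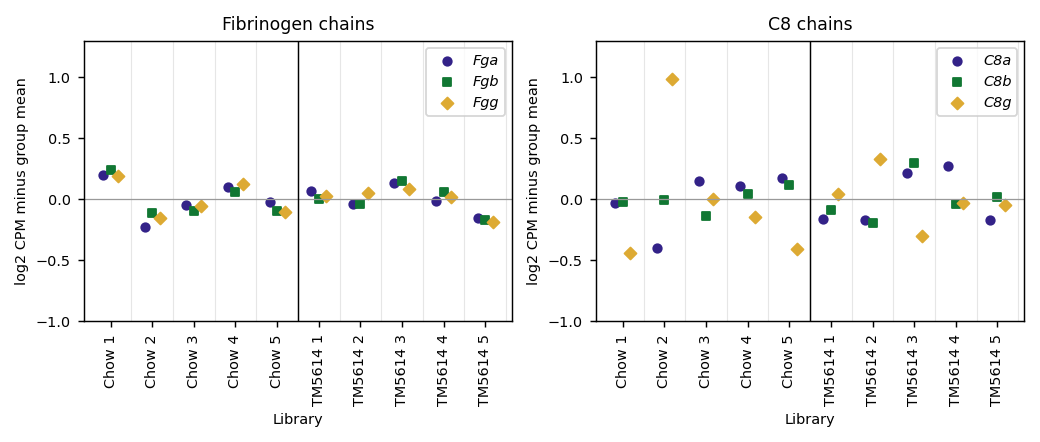
Log2 CPM minus the group mean (vertical axis) in each of the 10 libraries (horizontal axis) for the 3 fibrinogen transcripts on the left and the 3 C8 transcripts on the right. The fibrinogen points of a library lie close together, with Chow replicate 1 high and TM5614 replicate 5 low, while C8g in Chow replicate 2 lies far from C8a and C8b.

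Among the protein C system and related plasma proteases, Hgfac had the lowest estimate of the 40 genes tested with all libraries (without Chow replicate 2 that of Masp1 was lower, at -0.62 against -0.60). Its product, hepatocyte growth factor activator, is a secreted relative of factor XII that thrombin activates, and the gene lies on chromosome 5 from 35041509 to 35048461 (GRCm38, plus strand). Hgfac was at 159, 331, 185, 148 and 168 CPM in the Chow libraries and at 139, 101, 92.7, 101 and 115 CPM in the TM5614 libraries. The groups did not overlap, and Chow replicate 2 was far above the rest of its group. The mean fell from 198 ± 75.5 to 110 ± 18.1 CPM, a log2 fold change of -0.85 ± 0.21 with an adjusted p of 0.0440 in edgeR. Without Chow replicate 2 the log2 fold change was -0.60 with an adjusted p of 0.00739, and the call also held without Chow replicate 4 (adjusted p = 0.0456, edgeR). It was lost without any other single library, with an adjusted p of up to 0.131 (without TM5614 replicate 3, edgeR).

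Proc, the precursor of activated protein C, which inactivates factors Va and VIIIa, did not overlap between the groups either. It was at 451, 834, 467, 477 and 437 CPM in the Chow libraries and at 427, 423, 328, 375 and 370 CPM in the TM5614 libraries. The gap between the groups was narrow, from 427 to 437 CPM. The means were 533 ± 169 and 385 ± 41.3 CPM, a log2 fold change of -0.47 ± 0.18 (adjusted p = 0.168, edgeR), and -0.26 without Chow replicate 2 (adjusted p = 0.0854). Cpb2, the carboxypeptidase also called TAFI that protects fibrin from plasmin, was at 380, 265, 318, 341 and 345 CPM in the Chow libraries and at 258, 280, 246, 238 and 230 CPM in the TM5614 libraries. Only Chow replicate 2 reached into the TM5614 range. The log2 fold change of Cpb2 was -0.40 ± 0.11 (adjusted p = 0.0750, edgeR), and -0.47 with an adjusted p of 0.00349 without that library.

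Pros1, the cofactor of activated protein C, had a log2 fold change of 0.25 ± 0.24 (0.08 without Chow replicate 2) and Proz, the cofactor for inhibition of factor Xa, had -0.25 ± 0.19 (adjusted p = 0.564 and 0.466, edgeR). Proz passed without Chow replicate 2, at -0.41 (adjusted p = 0.0453, edgeR). Thbd, which encodes thrombomodulin, the endothelial receptor that turns thrombin towards protein C, had the highest estimate of the 40 genes tested. It was at 1.82, 1.35, 0.626, 0.792 and 3.68 CPM in the Chow libraries and at 1.01, 6.49, 3.44, 2.06 and 5.03 CPM in the TM5614 libraries. The groups overlapped widely, on 5 to 50 counts in a library. The highest value came from TM5614 replicate 2, the library with the most muscle transcripts. The log2 fold change was 1.08 ± 0.52 (adjusted p = 0.266, edgeR), and 0.70 without Chow replicate 2 and TM5614 replicate 2 (adjusted p = 0.459). Of the 4 endothelial genes tested (Tfpi, F8, Vwf and Thbd), 3 had estimates above 0 and the median was 0.14. With GC content and length corrected for, Tfpi (-0.13), F8 (-0.09) and Vwf (-0.10) were below 0 and Thbd (1.07) was above. The 12 markers of liver endothelium had a median of -0.08 and summed to 137 to 226 CPM in Chow mice and 135 to 213 CPM in TM5614 mice. Their part in these estimates was not tested.

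A group that cuts across the pathways is that of the 7 vitamin K-dependent factors, F2, F7, F9, F10, Proc, Pros1 and Proz, whose proteins need carboxylated glutamate residues to bind membranes. Of these, 1 (F7) was called lower and 3 (F7, F2 and Proc) did not overlap between the groups, where 4.5% of all genes tested were called and 8.93% did not overlap. Their median log2 fold change was -0.32, with 5 estimates below 0 and with F9 (0.04, and -0.13 without Chow replicate 2) and Pros1 (0.25) above. DESeq2 called 2 of the 7 and limma-voom called 3, where they called 8.08% and 12.5% of all genes tested. The 5 genes of the vitamin K cycle, among them the carboxylase Ggcx and the reductase Vkorc1, had a median of -0.09. Of these, 0 were called in edgeR or DESeq2, 2 in limma-voom and 2 at an unadjusted p of 0.05 (20.4% of all genes tested).

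**Figure D5:**
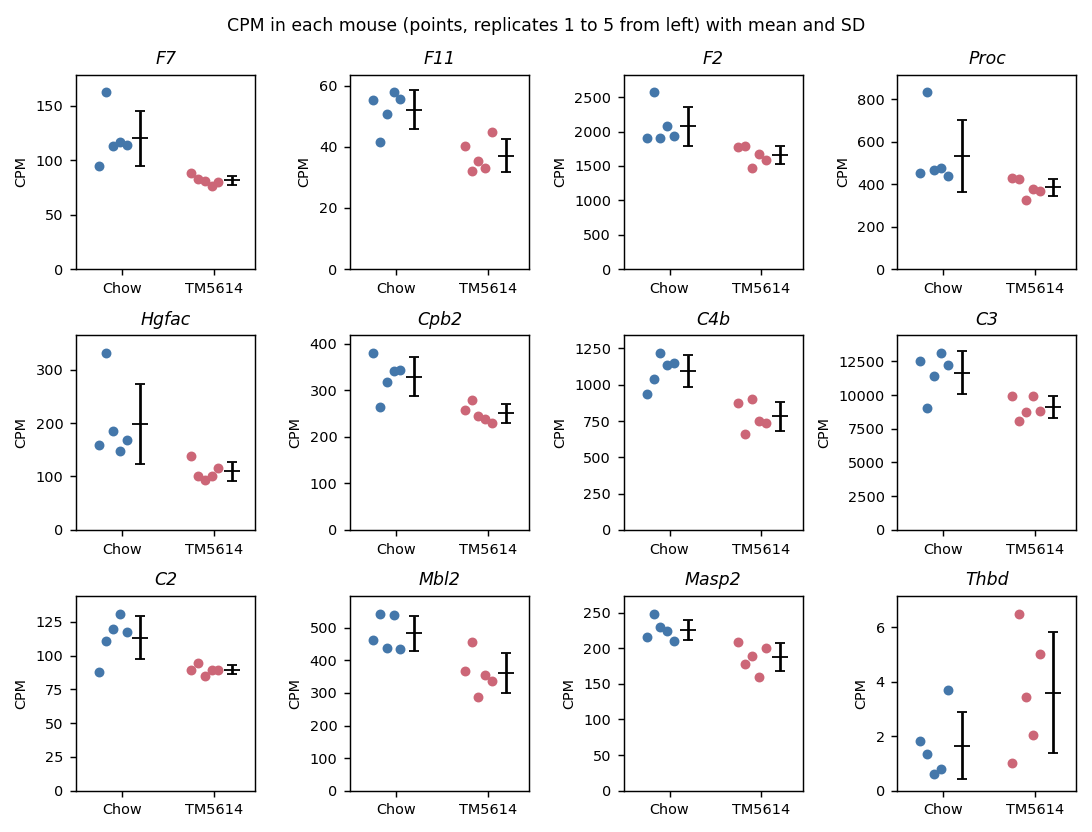
CPM of 12 genes in each mouse (points) with the group mean and SD (bars, n = 5 each), each vertical axis starting at 0. Points of the groups do not overlap for F7, F2, Proc, Hgfac, C4b and Masp2, while F11, Cpb2 and C3 overlap through Chow replicate 2 and Thbd overlaps widely.

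In the lectin and classical pathways, where recognition of a surface leads to cleavage of C4 and C2, all 6 genes had estimates below 0, with a median of -0.35. C4b passed the test. Its gene lies in the major histocompatibility region of chromosome 17 from 34728380 to 34743882 (GRCm38, minus strand), near C2 and Cfb. C4b was at 934, 1043, 1218, 1137 and 1151 CPM in the Chow libraries and at 874, 661, 900.0, 749 and 735 CPM in the TM5614 libraries. The groups did not overlap, and Chow replicate 2 lay within its group for this gene. The mean fell from 1097 ± 111 to 784 ± 100 CPM, a log2 fold change of -0.48 ± 0.12 with an adjusted p of 0.0387 in edgeR. Without Chow replicate 2 the log2 fold change was -0.51 and the adjusted p 0.0157, and without Chow replicate 1 it was 0.0333. Leaving out any other single library ended the call, with an adjusted p of up to 0.111 (without TM5614 replicate 4, edgeR). Its near copy C4a had only 27 to 123 counts in a library, against 5096 to 12513 for C4b. How reads that match both genes were counted is not given. These counts therefore cannot show how far shared reads moved the C4b value, which was not tested. Genes lie close together in this region and the use of strand in counting is not known, and reads shared with other neighbours were not examined.

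Masp2, the lectin pathway protease that cleaves C4 and C2, was at 216, 248, 230, 224 and 210 CPM in the Chow libraries and at 209, 177, 190, 160 and 200.5 CPM in the TM5614 libraries. The groups did not overlap, but Chow replicate 5 and TM5614 replicate 1 were almost level. The means were 226 ± 14.6 and 187 ± 19.3 CPM, a log2 fold change of -0.27 ± 0.10 (adjusted p = 0.172, edgeR). Mbl2, a lectin that recognises microbial sugars, had means of 483 ± 53.5 and 360 ± 61.4 CPM (log2 fold change -0.42 ± 0.13, adjusted p = 0.0999 in edgeR). DESeq2 (adjusted p = 0.0235) and limma-voom (adjusted p = 0.0186) called Mbl2. In edgeR Mbl2 passed without TM5614 replicate 2, and without both replicate 2 libraries (-0.48, adjusted p = 0.00976). The other lectin, Mbl1, had -0.01 ± 0.20 with all libraries and 0.24 without Chow replicate 2 (adjusted p = 0.0984, edgeR). The direction of its estimate thus turned with that library. C2, the protease precursor of the C3 convertase, had means of 113 ± 16.0 and 89.6 ± 3.53 CPM (-0.34 ± 0.11, adjusted p = 0.121 in edgeR). DESeq2 (adjusted p = 0.0354) and limma-voom (adjusted p = 0.0295) called C2. In edgeR C2 passed without Chow replicate 1, and without both replicate 2 libraries (adjusted p = 0.0497). Masp1, a further lectin pathway protease, was at 21.3 CPM in Chow replicate 2 and at 71.5 to 106 CPM in the other Chow libraries, against 48.4 to 66.9 CPM in the TM5614 libraries. Its log2 fold change moved from -0.37 ± 0.32 with all libraries to -0.62 ± 0.12 without Chow replicate 2, where the adjusted p in edgeR was 0.00861.

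C3, on which all complement pathways converge, and factor B, the protease of the alternative pathway convertase, were the main transcripts of the alternative pathway list. C3 was at 12528, 9034, 11417, 13110 and 12230 CPM in the Chow libraries and at 9897, 8090, 8767, 9951 and 8829 CPM in the TM5614 libraries. Chow replicate 2 was the only Chow library within the range of the TM5614 group. The means were 11664 ± 1592 and 9107 ± 801 CPM, a log2 fold change of -0.36 ± 0.12 (adjusted p = 0.123, edgeR), and -0.44 with an adjusted p of 0.0117 without Chow replicate 2. C3 took 1.15% ± 0.170 of all counts in Chow mice and 0.922% ± 0.0624 in TM5614 mice. Cfb had a log2 fold change of -0.26 ± 0.13 (adjusted p = 0.291, edgeR). Cfp, which encodes properdin, the stabiliser of that convertase, had -0.47 ± 0.38 (adjusted p = 0.500, edgeR), and its 3.76 to 18.3 CPM in the Chow libraries enclosed all TM5614 values. The estimate rested on Chow replicate 2, the highest library, since it was -0.07 without it, and with limma-voom it was 0.09. Of the 12 markers of Kupffer cells and macrophages, all 12 had estimates below 0 with a median of -0.38. They summed to 88.8 to 279 CPM in Chow mice and to 93.2 to 194 CPM in TM5614 mice, 0 of them passed at the adjusted or unadjusted threshold in edgeR, and DESeq2 and limma-voom called 0. Their part in the Cfp estimate was not tested.

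Neither of the 2 fluid-phase regulators was called with all libraries in edgeR. Cfi, the protease that inactivates C3b and C4b, had a log2 fold change of -0.17 ± 0.11 (adjusted p = 0.415, edgeR), and C4bp, its cofactor for C4b, had -0.16 ± 0.13 (adjusted p = 0.514, edgeR). With GC content and length corrected for, C4bp was called, at -0.38 (adjusted p = 0.0372, edgeR). Cfi was at 517 CPM in Chow replicate 2 and at 685 to 724 CPM in the other Chow libraries, and without that library its log2 fold change was -0.25 (adjusted p = 0.0442, edgeR). In the terminal pathway, whose proteins form the membrane attack complex, all 6 genes had estimates below 0, from -0.42 for C8g to -0.05 for C6, with a median of -0.24. Of these, edgeR and DESeq2 called 0 and limma-voom called 1 (Hc, which encodes C5), where limma-voom called 12.5% of all genes tested. In edgeR 1 of the 6 had an unadjusted p under 0.05, where 20.4% of all genes tested had. That was C8b, with means of 228 ± 14.5 and 191 ± 25.7 CPM (log2 fold change -0.25 ± 0.11, adjusted p = 0.223 in edgeR). C8g had -0.42 ± 0.25 with all libraries (adjusted p = 0.367, edgeR) and -0.09 without Chow replicate 2, in which it was at 621 CPM. C9, the subunit that forms the pore, had -0.25 ± 0.13 (adjusted p = 0.304, edgeR), and Hc had -0.24 ± 0.18 and C8a -0.13 ± 0.14. Without Chow replicate 2 the log2 fold change of Hc was -0.39 (adjusted p = 0.0574, edgeR).

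Leaving out Chow replicate 2 changed which genes passed as well as how many. In edgeR with the other settings as before, F7, Hgfac and C4b passed with and without it, and F11, Cpb2, Proz, Masp1, C3 and Cfi passed without it and not with it. With all 10 libraries limma-voom also called these 6, and DESeq2 called F11, Cpb2 and C3. In each of those 6 genes Chow replicate 2 held the lowest value of the Chow group. In F7, F2, F10, Proc and Hgfac it held the highest, and there the log2 fold change was closer to 0 without it. All 9 genes that passed without this library were lower in the TM5614 group.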

How the data were processed

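Liver poly(A) RNA of 10 mice was sequenced as single-end reads (KAPA libraries) and aligned with STAR to mm10 by the authors. The submitters' processing notes also name HOMER and DESeq2, without versions, and the annotation and use of strand in counting are not given in the sources used here. The authors deposited raw whole-number counts per gene symbol, and FPKM values, in which a count is divided by gene length and by the size of its library. Their regularised log2 values and their table of DESeq2 fold changes and p-values were not used.

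Groups and replicate numbers came from the sample titles, and columns were matched by mouse number. Between libraries of a group chi-square per degree of freedom was 7.498 or more, so none was counted as a duplicate. Of 24421 genes, 17291 had a count and 11092 passed filterByExpr. With TMM scaling, groups were compared with edgeR 4.0.16 in R 4.3.3 (glmQLFit, glmQLFTest, two-sided, no block) and Benjamini-Hochberg adjustment over all genes tested, and genes under 0.05 were called. The standard error was obtained by dividing the size of the log2 fold change by the root of F. CPM use the TMM-scaled library size, with a prior count of 2 for log2 CPM. The fit was tested on simulated data. DESeq2 1.42.0, limma-voom (limma 3.58.1), other scalings and filters, a spline correction for GC content and length (5 degrees of freedom each), a replicate block and left-out libraries were alternatives.

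The members, gene lists and alternatives were chosen with earlier results of these data known. Values in every library are given for members called or not overlapping and for some others chosen after their values were seen (F11, Cpb2, C3 and Thbd). Fold changes and p-values are given for members with an unadjusted p under 0.05 and the 2 most abundant members of each functional list, and fold changes for the rest. Genes of other lists are named where they passed the threshold or where a result refers to them. Gene coordinates are from GENCODE M21 on GRCm38, the assembly of mm10. The mice are separate animals, so p-values measure the spread between mice. Counting error is the only error that depth sets, since reads carry no molecular identifiers. The labels give no batch.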

Additional observations from a re-analysis of the deposited data

Results flagged for a closer look

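Single stray libraries were looked for in 84 groups of 5 libraries. The groups came from the 40 tested genes and from the shares of counts of the coagulation and complement genes. F13a1 and Procr, which were not tested, were not among them. In 14 groups the gap of a library to its nearest neighbour exceeded 0.71 of the range (Dixon's 95% critical value). Chance gives about 1 in 20 groups, or 4.2 of 84, and genes of 1 library are not independent of each other. In 12 of the 14 the library was Chow replicate 2. There it held the highest CPM of its group for F12 (713.8, the others 442.6 to 497.2), F10 (712.3, the others 402.1 to 470.9), F2 (2572, the others 1899 to 2076), Proc (833.7, the others 436.9 to 476.6), Hgfac (330.9, the others 147.7 to 185.2), Mbl1 (238.9, the others 112.7 to 134) and C8g (621.2, the others 230.7 to 314).

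It held the lowest CPM for Klkb1 (262.9, the others 314.6 to 324.7), F9 (131.4, the others 260.2 to 312.1), F5 (304.8, the others 767.3 to 890.4), F13b (87.29, the others 226.6 to 280.7) and Cfi (517.5, the others 684.7 to 723.8). In the TM5614 group replicate 5 held the lowest CPM of F3 (2.977, the others 4.931 to 5.389) and of Fgg (2820, the others 3250 to 3413).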

How the results depend on the processing

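The count of coagulation and complement genes called, 3 of 40, was 9 with DESeq2, 13 with limma-voom and sample quality weights, 1 with library totals alone, 0 without a filter on low counts, 6 with the correction for GC content and length, 0 at an adjusted p of 0.01 and 11 without Chow replicate 2 and TM5614 replicate 2. It ranged from 0 to 9 when single libraries were left out. The 499 genes called over the whole table became 908 with DESeq2, 1386 with limma-voom, 184 at an adjusted p of 0.01 and 1230 without both libraries, and ranged from 235 to 1031 when single libraries were left out. Without a filter 368 genes were called over the table, on more genes tested. No coagulation or complement gene was called higher in any of these settings.

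With the replicate number as a block, 1 of the 40 was called (F11, adjusted p = 0.0415), the adjusted p of F7, Hgfac and C4b was 0.0549, 0.0594 and 0.0518 in edgeR, and 555 genes were called over the table. The block together with the GC and length correction gave 7 of 40 and 771 over the table. The numbers were not taken to pair the samples, since deviations of same-numbered libraries correlated at 0.0316, 0.318, 0.124, 0.0323 and 0.250, and only replicate 2 correlated best with its own number.

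The median log2 fold change of the 40 genes lay between -0.20 and -0.26 over the alternatives, that of the complement genes between -0.21 and -0.31 and that of the coagulation genes between -0.09 and -0.17. The estimate of Fgg, close to 0 throughout, turned positive with library totals alone (0.0297), and ranged from -0.0640 to 0.0237 when single libraries were left out, above 0 in 3 of those fits. The correlation of C8b and C8g was 0.0107 without centring on the group means. The causes of these moves were not tested. Depth limits F13a1, Procr, Thbd, F3 and Tfpi, whose counts were at most 50 in a library.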

Other observations

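Genes around these cascades were placed in lists of their own. Of 28 other complement genes, among them receptors, C1 subunits and membrane regulators, 24 were tested. Of these 1 was called in edgeR, where 4.5% of all genes tested were called. That gene was Cd55, a membrane protein that dissociates C3 convertases on the own cells of the body. Cd55 was at 5.09, 3.57, 3.65, 6.02 and 5.15 CPM in the Chow libraries and at 6.61, 8.18, 11.1, 7.54 and 8.42 CPM in the TM5614 libraries. All TM5614 values lay above all Chow values, and the mean rose from 4.70 ± 1.06 to 8.37 ± 1.69 CPM (SD over 5 mice), and the log2 fold change was 0.85 ± 0.20 (SE) with an adjusted p of 0.0304 in edgeR, on 35 to 97 counts in a library. The median of the 24 was -0.11, with 16 estimates below 0.

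The serpins that inhibit clotting and complement proteases had 5 genes tested, all with estimates below 0 and a median of -0.25. None passed the adjusted threshold in edgeR, 3 had an unadjusted p under 0.05, DESeq2 called 2 and limma-voom called 1. For these and the next lists, 20.4% of all genes tested had an unadjusted p under 0.05 in edgeR. DESeq2 called 8.08% of all genes and limma-voom 12.5%. Of 7 other haemostasis genes tested edgeR called 0, with 4 at an unadjusted p under 0.05 and 2 called by DESeq2 and by limma-voom, and the median was -0.34. Of 6 genes for secretion and processing of clotting factors edgeR called 0, with 3 at an unadjusted p under 0.05 and 1 called by each of the other tools, and the median was -0.14. The 11 liver-enriched transcription factors had a median of 0.10, and 0 of them passed at the adjusted or the unadjusted threshold in edgeR, in DESeq2 or in limma-voom. The 10 genes of IL-6 and acute-phase signalling had a median of 0.03, with 0 called in edgeR or DESeq2, 1 in limma-voom and 1 at an unadjusted p under 0.05. Of the marker lists, the 7 hepatocyte markers had a median of -0.15 with 0 called in edgeR, 1 by DESeq2 and 1 by limma-voom, and 3 at an unadjusted p under 0.05. The 8 stellate cell markers had a median of 0.32, with 0 called in edgeR or DESeq2, 1 by limma-voom and 3 at an unadjusted p under 0.05. Among these was Des, which muscle also expresses. Des was at 258 CPM in TM5614 replicate 2, the library with the most muscle transcripts, and at 1.47 to 7.57 CPM in the others. Platelet markers were near the floor, with 1 of 7 tested and 1.15 to 4.44 summed CPM over all libraries.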
